A study of Homo sapiens with 18 samples.

Results

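A set of 10 genes of the heat shock response was followed through 2 oestrogen receptor-positive breast cancer cell lines under CDK4/6 inhibition. They are 10 of the 60656 gene rows of the count table, and they were taken by name as HSF1-dependent chaperones of the cytosol and mitochondria: HSPA1A, HSPA1B, HSPA8, HSPH1, DNAJB1, HSP90AA1, HSP90AB1, HSPB1, HSPD1 and HSPE1. All 10 passed the filter on low counts in both lines. CAMA-1 and ZR-75-1 are established lines of breast tumour cells, given in the labels as parental cells of wild-type genotype. Each was treated for 5 days with DMSO, the solvent control, with abemaciclib at 500 nM or with palbociclib at 500 nM, both inhibitors of the cyclin-dependent kinases CDK4 and CDK6. Each of the 6 groups holds 3 libraries, which the study's methods call independent biological replicates. A contrast of CAMA-1 with ZR-75-1 therefore compares 2 cell lines, each a single cultured population.

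Molecular chaperones bind proteins that are unfolded or still folding. HSF1, the master transcription factor of the heat shock response, is held inactive by chaperones and, when misfolded proteins occupy them, forms trimers that bind heat shock elements in DNA and raise transcription of chaperone genes. Cancer cells depend on the HSP90 and HSP70 systems, and among the HSP90 clients are the oestrogen receptor, CDK4 and many kinases. HSPB1, the small heat shock protein HSP27, was known early on as an oestrogen-induced protein of breast cancer cells. In mitochondria, HSPD1 (HSP60) and its lid HSPE1 (HSP10) form the chamber in which imported proteins fold.

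The promoters below are shown because heat shock elements are the feature these genes are known for, and because HSPA1A and HSPA1B, HSP90AA1 and HSP90AB1, and HSPB1 behaved differently from each other in the libraries. A heat shock element is built of GAA and TTC units in alternating orientation, and capitals mark each GAANNTTC or TTCNNGAA, both of which read the same on either strand. Sequences are RefSeq windows on GRCh38.p14, written 5′ to 3′ on the gene's strand and ending at the base before the annotated start or, for HSP90AB1, before the first annotated exon base in the window. HSP90AA1 and HSP90AB1 have several windows each. The one that held a marked motif is shown, and their other windows held none.
HSPA1A (chr6:31815293-31815542, plus strand): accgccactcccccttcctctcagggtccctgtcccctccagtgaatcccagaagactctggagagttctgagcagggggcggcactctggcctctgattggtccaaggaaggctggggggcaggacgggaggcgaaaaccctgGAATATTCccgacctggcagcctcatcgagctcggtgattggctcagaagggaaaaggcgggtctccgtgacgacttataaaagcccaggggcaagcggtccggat
HSPA1B (chr6:31827488-31827737, plus strand): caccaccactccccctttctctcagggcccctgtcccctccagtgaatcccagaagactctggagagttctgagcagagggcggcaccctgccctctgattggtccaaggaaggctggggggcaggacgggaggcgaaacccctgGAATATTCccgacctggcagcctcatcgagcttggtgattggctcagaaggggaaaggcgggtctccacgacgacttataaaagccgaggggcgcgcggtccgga
HSPB1 (chr7:76302423-76302672, plus strand): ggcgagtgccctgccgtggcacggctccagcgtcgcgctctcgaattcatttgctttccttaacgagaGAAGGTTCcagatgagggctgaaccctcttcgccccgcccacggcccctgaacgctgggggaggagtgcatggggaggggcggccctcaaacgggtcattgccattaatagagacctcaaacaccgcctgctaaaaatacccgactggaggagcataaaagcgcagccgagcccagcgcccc
HSP90AA1 (chr14:102087045-102087294, minus strand): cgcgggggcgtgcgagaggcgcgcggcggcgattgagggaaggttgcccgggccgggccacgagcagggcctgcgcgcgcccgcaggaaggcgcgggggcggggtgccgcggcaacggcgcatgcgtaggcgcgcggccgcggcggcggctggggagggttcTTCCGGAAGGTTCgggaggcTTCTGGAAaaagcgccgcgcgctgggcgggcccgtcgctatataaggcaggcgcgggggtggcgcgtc
HSP90AB1 (chr6:44247693-44247865, plus strand): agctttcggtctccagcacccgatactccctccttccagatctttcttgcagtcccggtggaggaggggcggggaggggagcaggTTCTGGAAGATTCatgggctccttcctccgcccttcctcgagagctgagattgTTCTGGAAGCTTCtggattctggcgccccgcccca

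All 10 genes matched the RefSeq promoter table, which gave them 16 start sites. In the 250 bases before the start, 8 of these 16 windows, one in each of 8 genes, held GAANNTTC or TTCNNGAA, against 11.58% of all 35116 windows in the table. HSPH1 and HSPE1 held neither in these windows, which says only that the letters are not there. The HSPE1 window (chr2:197500129-197500378) lies almost wholly past that gene's annotated start at 197500140. The HSPD1 window that held a motif (chr2:197499841-197500090) lies before this HSPE1 start, so its motif stands upstream of HSPE1 as well. A run of 3 such units in alternating orientation, each pair 2 bases apart, stood in 4 of the 16 windows, against 0.44% of all windows. These were windows before an annotated start of HSPA8, HSP90AA1, HSP90AB1 and HSPD1. These longer runs contain the shorter motifs and can overlap. TATAAA, on either strand, was found in 2 of the 16 windows, those of HSPA1A and HSPA1B, against 10.72% of all windows. The windows of HSPA1A and HSPA1B were 93.6% identical over 250 bases, with the same marked motif, and the coding sequences of their transcripts were 99.8% identical over 1926 bases. The last 300 bases of the transcripts, where a 3′ assay reads, aligned at 47.2% identity. The HSP90AB1 window lies inside the gene, before an internal start site, and the HSP90AA1 window likewise serves the shorter transcripts of a gene whose longest transcript starts further upstream. The windows of HSPA8, DNAJB1 and HSPD1 that held a motif also lie inside the annotated spans of their genes. A match is a description of the sequence and not a measured binding site.

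RNA was read from its 3′ ends (Lexogen QuantSeq), which yields about 1 read per transcript molecule regardless of length. Library totals ran from 2308442 to 4146549 counts, and levels are given in CPM (counts scaled to the library total and corrected by TMM, the trimmed mean of M values). Single members held between 130 counts (HSPA1B) and 25512 counts (HSPB1) in a library. Both lines expressed all 7 luminal markers (ESR1, GATA3, FOXA1, KRT8, KRT18, KRT19 and EPCAM) in every library, with summed levels of 4648 to 6679 CPM in CAMA-1 and 4905 to 6525 CPM in ZR-75-1. Of 10 basal, stromal and immune markers, KRT5, COL1A2, PDGFRB and CD3E had no count in any library, and the 10 together summed to 12.8 to 34.7 CPM, most of it COL1A1. MKI67, a marker of cycling cells, had a log2 fold change against DMSO of -3.27 ± 0.096 (SE) with abemaciclib and -2.40 ± 0.087 with palbociclib in CAMA-1, and of -5.88 ± 0.12 and -1.36 ± 0.077 in ZR-75-1. In CAMA-1, mitochondrially encoded genes held 14.84 to 16.57% of the counts with DMSO, 23.37 to 26.1% with abemaciclib and 22.86 to 24.94% with palbociclib. ZR-75-1 showed no such separation, with 17.31 to 22.64%, 18.5 to 20.51% and 18.48 to 19.78%. In bulk RNA, fewer cells expressing a gene and less RNA per cell cannot be told apart.

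**Figure D1:**
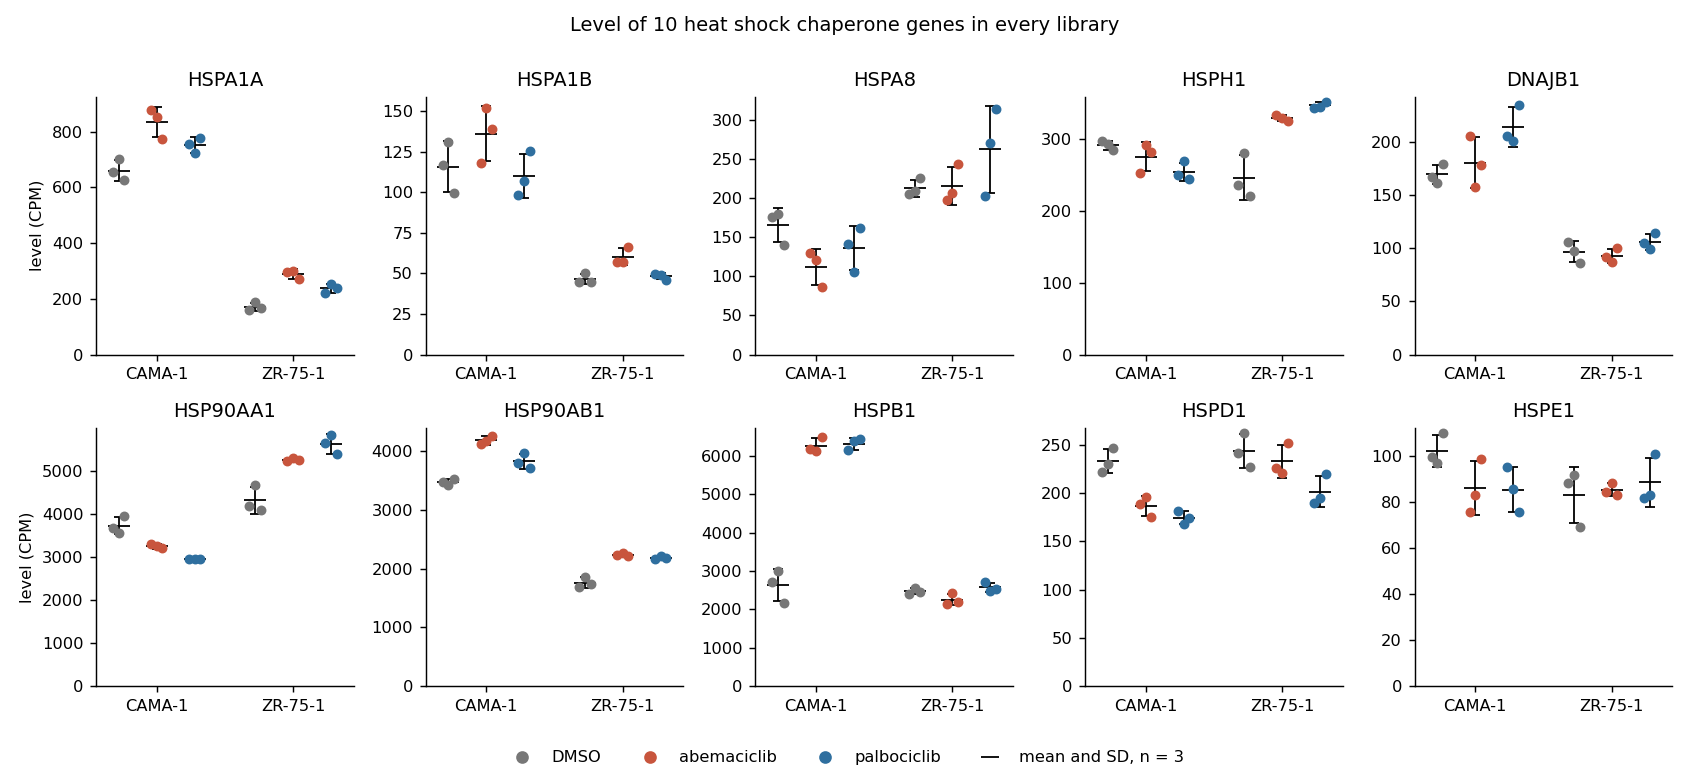
Level of each of the 10 chaperone genes in all 18 libraries, in CPM on a linear axis that starts at 0; each point is a library, and black bars give the mean and SD of the 3 libraries of a group. HSPB1 lay between 2170.2 and 3009 CPM in the CAMA-1 DMSO libraries and from 6133 to 6499 CPM in the drug-treated CAMA-1 libraries, whereas HSPA1A, HSP90AB1 and DNAJB1 were higher in CAMA-1 than in ZR-75-1 under every treatment.

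The chaperones did not move in one direction. A gene was called higher or lower at a Benjamini-Hochberg adjusted p under 0.05 in the edgeR quasi-likelihood F test over all genes of a comparison. With abemaciclib in CAMA-1, 3 of the 10 were called higher (HSPA1A, HSP90AB1 and HSPB1), against 20.3% of all 11053 genes tested, and 3 lower (HSP90AA1, HSPD1 and HSPE1), against 20.2%. With palbociclib in CAMA-1, 3 were higher (HSPA1A, DNAJB1 and HSPB1), against 18.5%, and 4 lower (HSPH1, HSP90AA1, HSPD1 and HSPE1), against 18.9%. The members thus split over both directions in CAMA-1, and their median log2 fold change was -0.025 with abemaciclib (all genes 0.01) and -0.166 with palbociclib (all genes 0.0011).

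In ZR-75-1 more members were called higher than lower. With abemaciclib, 5 of the 10 were called higher (HSPA1A, HSPA1B, HSPH1, HSP90AA1 and HSP90AB1), against 17.9% of 11017 genes, and 1 lower (HSPB1), against 18.3%. With palbociclib, 4 were called higher (HSPA1A, HSPH1, HSP90AA1 and HSP90AB1), against 14.6%, and 1 lower (HSPD1), against 13.6%. The median log2 fold change of the members was 0.154 and 0.212, beside -0.0037 and -0.008 for all genes. HSPA1A was the one member called higher in all 4 comparisons with DMSO, and HSPA8 was called in none of them. Both drugs share their DMSO libraries within a line, so the 2 comparisons of a line are not independent.

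**Figure D2:**
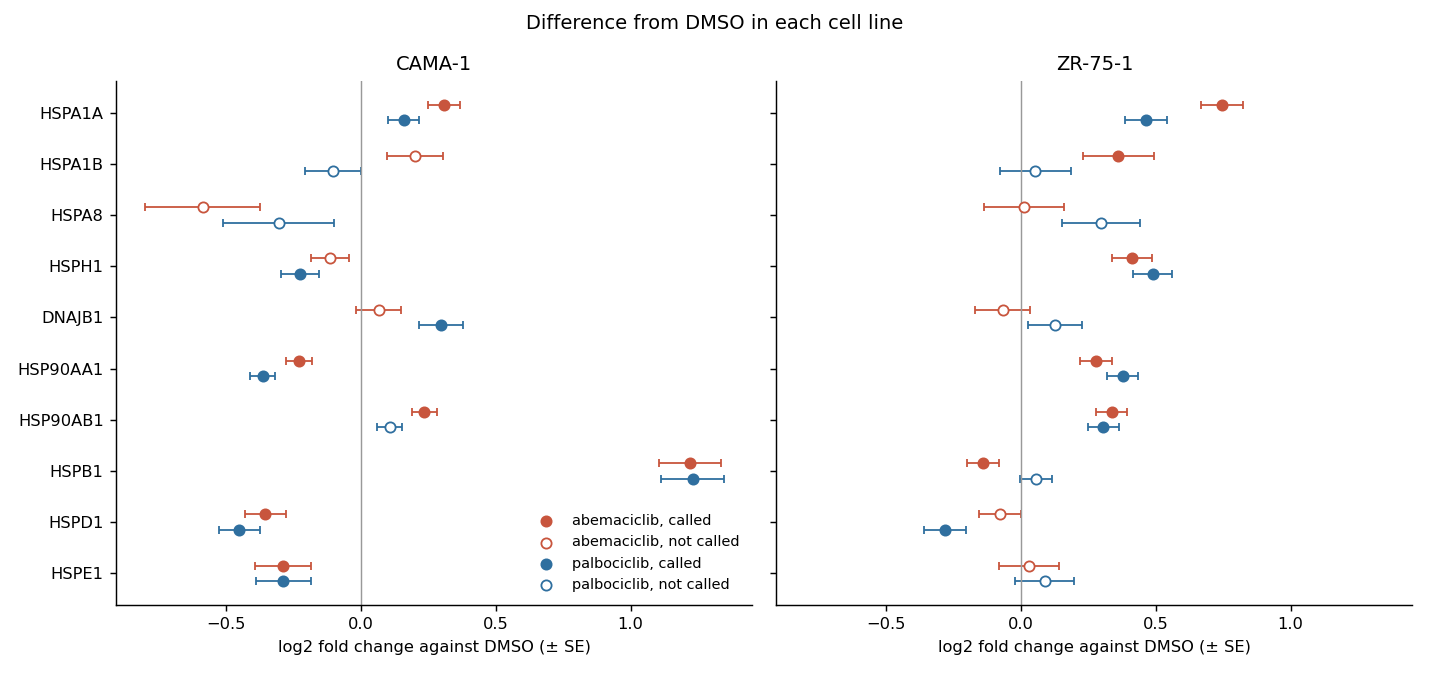
Log2 fold change of each gene against DMSO in CAMA-1 (left) and ZR-75-1 (right), for abemaciclib and palbociclib, with bars of 1 SE and filled points for an adjusted p under 0.05 (n = 3 libraries a group). HSPB1 in CAMA-1 stands at 1.22 and 1.23, and HSP90AA1 lies to the left of 0 in CAMA-1 and to the right in ZR-75-1.

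The inducible HSP70 genes HSPA1A (chr6:31815543-31817946, plus strand) and HSPA1B (chr6:31827738-31830254, plus strand; GENCODE on GRCh38) lie side by side on chromosome 6 and encode nearly the same protein, the HSP70 that stress induces. HSPA1A stood at 654, 700.3 and 627 CPM in the CAMA-1 DMSO libraries, at 878, 852 and 774 with abemaciclib and at 757, 723 and 778 with palbociclib. Neither drug group overlapped the DMSO group. It rose 1.24-fold with abemaciclib (log2 fold change 0.31 ± 0.058 SE, adjusted p = 9.4e-06) and 1.12-fold with palbociclib (0.16 ± 0.058, adjusted p = 0.0244). In ZR-75-1 the same gene started lower, at 159, 188 and 166 CPM, and reached 297, 300.1 and 269.9 with abemaciclib and 220.5, 254 and 239 with palbociclib. All 3 groups of ZR-75-1 were separate, with abemaciclib highest. The rise was 1.68-fold with abemaciclib (0.75 ± 0.078, adjusted p = 3.22e-14) and 1.38-fold with palbociclib (0.46 ± 0.078, adjusted p = 7.46e-07). The palbociclib call in CAMA-1 was lost without DMSO replicate 1, 0.15 (adjusted p = 0.0845), DMSO replicate 3, 0.11 (adjusted p = 0.113), palbociclib replicate 1, 0.16 (adjusted p = 0.0747), or palbociclib replicate 3, 0.14 (adjusted p = 0.106), and in DESeq2 (0.0594). The other 3 calls held in every alternative run.

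HSPA1B had fewer counts than HSPA1A in every library. In CAMA-1 its levels were 117, 131 and 99.7 CPM with DMSO, 118, 152 and 139 with abemaciclib and 98.4, 107 and 125 with palbociclib, and the groups overlapped. In ZR-75-1, DMSO gave 44.5, 50 and 44.9 CPM, abemaciclib 57.1, 57.3 and 66.3 and palbociclib 49.9, 49.2 and 46.2, so the abemaciclib libraries lay above both other groups. Only this abemaciclib difference was called, at 1.28-fold (0.36 ± 0.13, adjusted p = 0.0222), and it was lost without DMSO replicate 1, 0.33 (adjusted p = 0.0748), DMSO replicate 3, 0.34 (adjusted p = 0.0662), or abemaciclib replicate 3, 0.29 (adjusted p = 0.125), and in DESeq2 (0.0661). The abemaciclib difference in CAMA-1, 0.20 ± 0.10 (adjusted p = 0.119), passed the threshold without DMSO replicate 2, 0.3 (adjusted p = 0.0253), or abemaciclib replicate 1, 0.31 (adjusted p = 0.0199). The ratio of HSPA1A to HSPA1B counts was 3.58, 3.77 and 3.7 in the ZR-75-1 DMSO libraries, 5.21, 5.24 and 4.07 with abemaciclib and 4.42, 5.16 and 5.17 with palbociclib, so both drug groups lay above DMSO. In CAMA-1 the ratios ran from 5.33 to 6.28 with DMSO and from 5.57 to 7.69 with the drugs, and the groups overlapped. How the counting treated reads that fit both genes was not stated. With the 2 rows added together, the log2 fold change was 0.29 ± 0.057 (adjusted p = 1.75e-05) and 0.12 ± 0.057 (adjusted p = 0.0849) for the 2 drugs in CAMA-1. The sum in ZR-75-1 changed by 0.67 ± 0.073 (adjusted p = 1.93e-13) and 0.39 ± 0.073 (adjusted p = 1.11e-05).

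HSPA8 (chr11:123057489-123063230, minus strand) encodes HSC70, the constitutive HSP70 of the cytosol. Its libraries spread widely within groups, with 176, 180.2 and 140.4 CPM in CAMA-1 with DMSO, 129, 121 and 86.5 with abemaciclib and 142, 106 and 162 with palbociclib. The abemaciclib libraries all lay below the DMSO libraries, and the palbociclib libraries overlapped them. The fitted change with abemaciclib was -0.59 ± 0.21 with an adjusted p of 0.0679, and with palbociclib -0.31 ± 0.21 (0.31), so neither was called. In ZR-75-1 the levels were 205, 209 and 225 with DMSO, 197, 207 and 244 with abemaciclib and 203, 270.2 and 314 with palbociclib. Palbociclib replicate 1 sat at the DMSO level and the other palbociclib libraries above it. The fitted changes were 0.0099 ± 0.15 (adjusted p = 0.969) and 0.30 ± 0.15 (adjusted p = 0.171). These calls turn on how the spread is estimated. Without the robust step, which lets a gene of unusual spread keep its own variance, abemaciclib in CAMA-1 gave -0.59 (adjusted p = 9.5e-05), palbociclib in CAMA-1 -0.31 (adjusted p = 0.0341) and palbociclib in ZR-75-1 0.3 (adjusted p = 0.0133). With no filter the same 3 were called (adjusted p = 6.92e-07, 0.019 and 0.00134) and DESeq2 called the first (0.0335). Without CAMA-1 DMSO replicate 3 the abemaciclib value was -0.71 (adjusted p = 0.0282), and without ZR-75-1 palbociclib replicate 1 the palbociclib value was 0.45 (adjusted p = 2.1e-06). The table holds 17 pseudogene rows of HSPA8 with 10 counts in all, beside 10535 counts for HSPA8 itself.

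HSPH1 and DNAJB1 serve the HSP70 cycle. HSPH1 (HSP110; chr13:31134973-31162388, minus strand) exchanges the nucleotide of HSP70, and DNAJB1 (HSP40; chr19:14514769-14560391, minus strand) is a J protein that delivers substrates and stimulates its ATPase. HSPH1 stood at 298, 293 and 285 CPM in CAMA-1 with DMSO, 254, 292 and 282 with abemaciclib and 249.8, 269 and 245 with palbociclib. The palbociclib libraries lay below DMSO, at 0.854 times its level (-0.23 ± 0.07, adjusted p = 0.00717), and the abemaciclib libraries overlapped DMSO (-0.12 ± 0.071, adjusted p = 0.195). In ZR-75-1 the direction was opposite: DMSO libraries had 236, 282 and 221 CPM, abemaciclib libraries 334, 330.0 and 325 and palbociclib libraries 344, 345 and 353. Every drug library was above every DMSO library. HSPH1 rose 1.33-fold with abemaciclib (0.41 ± 0.073, adjusted p = 1.81e-06) and 1.4-fold with palbociclib (0.49 ± 0.072, adjusted p = 2.83e-08). These 3 calls held in every alternative run.

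For DNAJB1 the called change was that of palbociclib in CAMA-1. The CAMA-1 levels were 167, 162 and 179.7 CPM with DMSO, 205, 158 and 179 with abemaciclib and 206, 201 and 235 with palbociclib. The palbociclib libraries were all above DMSO, by 1.23-fold (0.30 ± 0.082, adjusted p = 0.00225), a call that held in every alternative run, while the abemaciclib libraries scattered on both sides of it (0.065 ± 0.083, adjusted p = 0.566). In ZR-75-1 the 3 groups overlapped, between 86.4 and 114 CPM, with changes of -0.068 ± 0.10 (adjusted p = 0.654) and 0.13 ± 0.10 (adjusted p = 0.375). TECR runs over 525 exon bases of DNAJB1 on the opposite strand and had 22 to 83 counts per library, beside 250 to 855 for DNAJB1. Whether the counting used strand was not stated.

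HSP90AA1 (chr14:102080742-102139699, minus strand) and HSP90AB1 (chr6:44246166-44253888, plus strand) encode the stress-inducible alpha and the constitutive beta form of cytosolic HSP90, and their coding sequences were 75.4% identical. In CAMA-1, HSP90AA1 stood at 3677, 3552 and 3953 CPM with DMSO, 3296, 3245 and 3196 with abemaciclib and 2961, 2948 and 2962 with palbociclib. The 3 groups did not overlap, in that order. HSP90AA1 fell to 0.852 times the DMSO level with abemaciclib (-0.23 ± 0.047, adjusted p = 4.23e-05) and to 0.776 times with palbociclib (-0.37 ± 0.047, adjusted p = 1.06e-09). Its ZR-75-1 libraries read 4181, 4668 and 4091 CPM under DMSO, 5233, 5289 and 5252 under abemaciclib and 5636, 5839.9 and 5391 under palbociclib. Here every drug library was above every DMSO library. The rise was 1.21-fold with abemaciclib (0.28 ± 0.058, adjusted p = 4.02e-05) and 1.3-fold with palbociclib (0.38 ± 0.058, adjusted p = 6.97e-08). All 4 calls of HSP90AA1 held in every alternative run. Pseudogene rows of HSP90AA1 held at most 1.73% of its counts in a library.

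HSP90AB1 differed from its alpha partner in CAMA-1. It stood at 3477, 3413 and 3528 CPM with DMSO, 4109.8, 4164 and 4258 with abemaciclib and 3788, 3966 and 3715 with palbociclib. Both drug groups lay wholly above DMSO. The abemaciclib rise was 1.18-fold (0.24 ± 0.046, adjusted p = 2.12e-05), and the palbociclib difference of 0.11 ± 0.046 was not called (adjusted p = 0.0598). It passed the threshold with upper-quartile scaling (0.0455), without mitochondrially encoded genes (0.0321) and without CAMA-1 DMSO replicate 3, 0.11 (adjusted p = 0.0475). In ZR-75-1 the levels were 1679, 1860.1 and 1744 CPM with DMSO, 2238, 2261 and 2210.1 with abemaciclib and 2156, 2205 and 2184 with palbociclib. The drug groups were again wholly above DMSO, by 1.26-fold (0.34 ± 0.058, adjusted p = 7.55e-07) and 1.24-fold (0.30 ± 0.058, adjusted p = 1.12e-05). These 2 calls and the abemaciclib call in CAMA-1 held in every alternative run.

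The ratio of HSP90AA1 to HSP90AB1 counts separated the drug libraries from DMSO in CAMA-1. It was 1.06, 1.04 and 1.12 in the DMSO libraries, 0.8, 0.78 and 0.75 with abemaciclib and 0.78, 0.74 and 0.8 with palbociclib. No drug library overlapped the DMSO libraries, and the 2 drugs overlapped each other. In ZR-75-1, where both partners rose, the ratio was 2.49, 2.51 and 2.35 under DMSO, 2.34, 2.34 and 2.38 under abemaciclib and 2.61, 2.65 and 2.47 under palbociclib, with overlapping ranges for DMSO and each drug. Each ratio is taken within a library and does not depend on its scaling.

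**Figure D3:**
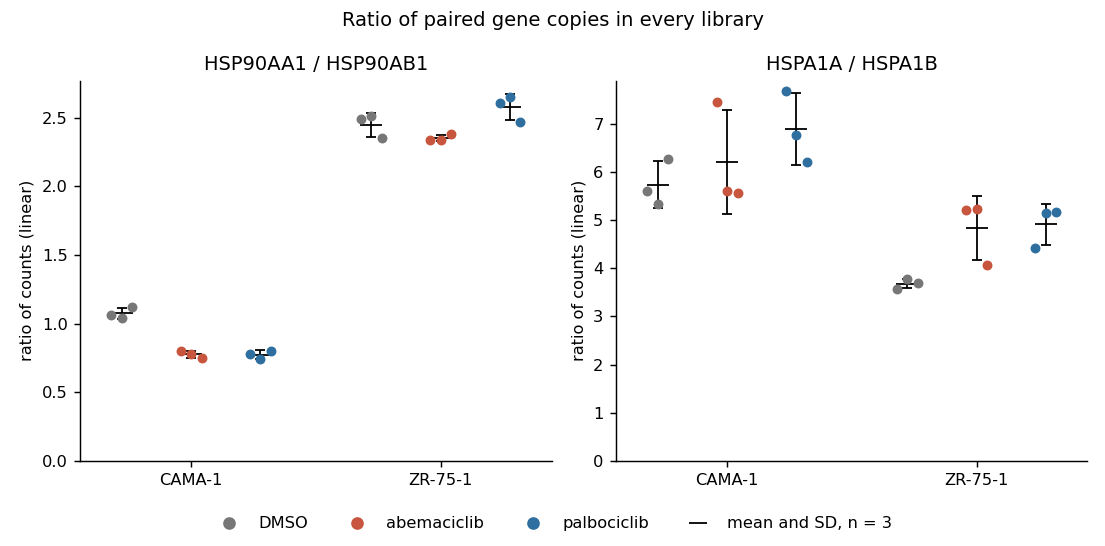
Ratio of HSP90AA1 to HSP90AB1 counts (left) and of HSPA1A to HSPA1B counts (right) in each library, on linear axes from 0, with the mean and SD of the 3 libraries of a group in black. The HSP90 ratio in CAMA-1 was 1.07 ± 0.04 under DMSO, 0.78 ± 0.03 under abemaciclib and 0.77 ± 0.03 under palbociclib; in ZR-75-1 it stayed between 2.34 and 2.65.

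HSPB1 (chr7:76302673-76304295, plus strand), which holds unfolding proteins in a state that HSP70 can refold, had the largest change of the 10 against DMSO, and it had it in one line. In CAMA-1 it stood at 2724, 3009 and 2170.2 CPM with DMSO, 6162, 6133 and 6499 with abemaciclib and 6139.6, 6374 and 6427 with palbociclib. Every drug library had more than 2 times the level of the highest DMSO library, and the drugs overlapped each other. The rise was 2.33-fold with abemaciclib (1.22 ± 0.12, adjusted p = 0.000109) and 2.35-fold with palbociclib (1.23 ± 0.12, adjusted p = 0.000114). Over all alternatives the log2 fold change ran from 1.09 to 1.33 and from 1.1 to 1.34, and both calls held in each. DMSO replicate 3 was the lowest of its group, and without it the rise was 1.09 and 1.1.

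In ZR-75-1, HSPB1 stood at 2402, 2556 and 2449 CPM with DMSO, 2133, 2419.7 and 2197 with abemaciclib and 2705, 2488 and 2529 with palbociclib. Each drug group overlapped DMSO, and the abemaciclib libraries all lay below the palbociclib libraries. Abemaciclib gave -0.14 ± 0.059 with an adjusted p of 0.0485, just inside the threshold, and palbociclib 0.056 ± 0.058 (adjusted p = 0.525). The abemaciclib call was lost with RLE scaling (0.0637), upper-quartile scaling (0.0733), no filter (0.113), DESeq2 (0.0796) and no robust step (0.0824). It was also lost without DMSO replicate 1, -0.16 (adjusted p = 0.0547), DMSO replicate 2, -0.12 (adjusted p = 0.161), DMSO replicate 3, -0.15 (adjusted p = 0.0971), abemaciclib replicate 1, -0.1 (adjusted p = 0.258), or abemaciclib replicate 3, -0.12 (adjusted p = 0.181). The summed level of the 10 genes in CAMA-1 was 11573 ± 217 CPM with DMSO, 15500.3 ± 163 under abemaciclib and 14822 ± 178 under palbociclib (SD, n = 3), and HSPB1 made up 22.8%, 40.4% and 42.6% of it. In ZR-75-1 the sums were 9645 ± 538, 11051 ± 189.5 and 11669.6 ± 169.7 CPM, with an HSPB1 share of 25.6%, 20.4% and 22.1%.

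The mitochondrial chaperonin genes HSPD1 (chr2:197486584-197516737, minus strand) and HSPE1 (chr2:197500140-197503449, plus strand) are known to be transcribed in opposite directions from a shared promoter region on chromosome 2, and in the annotation they share 135 exon bases. HSPD1 stood at 222, 230.4 and 247 CPM in CAMA-1 with DMSO, 189, 196 and 175 with abemaciclib and 181, 168 and 174 with palbociclib. Both drug groups lay wholly below DMSO, at 0.782 times its level with abemaciclib (-0.35 ± 0.077, adjusted p = 9.99e-05) and 0.732 times with palbociclib (-0.45 ± 0.076, adjusted p = 1.17e-06). In ZR-75-1 the levels were 242, 262 and 227 with DMSO, 225, 221 and 252 with abemaciclib and 189, 194 and 219 with palbociclib. Palbociclib lay below DMSO, at 0.823 times its level (-0.28 ± 0.077, adjusted p = 0.00278), and abemaciclib overlapped it (-0.077 ± 0.077, adjusted p = 0.477). The 3 calls of HSPD1 held in every alternative run. They moved against the mitochondrially encoded share of counts in CAMA-1, which was higher with both drugs, and what that share has to do with HSPD1 was not tested; with those 37 genes left out of the table, HSPD1 changed by -0.35 and -0.45.

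HSPE1 was lower with both drugs in CAMA-1, less firmly than HSPD1. Its levels were 100, 97.1 and 110.3 CPM with DMSO, 76, 83.2 and 99 with abemaciclib and 95.3, 85.6 and 75.8 with palbociclib. One abemaciclib library overlapped DMSO and no palbociclib library did. The fitted changes were -0.29 ± 0.10 (adjusted p = 0.0207) and -0.29 ± 0.10 (adjusted p = 0.0206). Both calls were lost in DESeq2, at 0.0834 and 0.0823, and without DMSO replicate 3, at -0.24 (adjusted p = 0.0924) and -0.23 (adjusted p = 0.0964). The abemaciclib call was also lost without abemaciclib replicate 1, -0.19 (adjusted p = 0.205), or 2, -0.27 (adjusted p = 0.0631), and the palbociclib call without palbociclib replicate 2, -0.28 (adjusted p = 0.0539), or 3, -0.21 (adjusted p = 0.144). In ZR-75-1 the groups overlapped between 69.4 and 101 CPM, and changes were 0.029 ± 0.11 (adjusted p = 0.87) and 0.088 ± 0.11 (adjusted p = 0.602). The read-through row HSPE1-MOB4 had no counts.

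Whether the lines responded differently was tested by subtracting the CAMA-1 log2 fold change from that of ZR-75-1, in one fit over all 18 libraries and 11987 genes. For abemaciclib, 3 of the 10 members were called higher by this measure, against 8.22% of genes, and 1 lower, against 10.1%. For palbociclib, the same 3 and the same 1 were called, against 10.1% and 10.4% of genes. HSPB1 was the one called lower, with a difference of -1.38 ± 0.11 (adjusted p = 2.18e-08) for abemaciclib and -1.20 ± 0.11 (adjusted p = 1.45e-07) for palbociclib. HSP90AA1, which fell in one line and rose in the other, differed by 0.49 ± 0.07 (adjusted p = 1.97e-08) and 0.72 ± 0.07 (adjusted p = 3.39e-15). HSPH1 differed by 0.50 ± 0.10 (adjusted p = 6.57e-05) and 0.69 ± 0.10 (adjusted p = 2.98e-08). The calls of these 3 genes held in every alternative run. HSPA1A rose in both lines and more so in ZR-75-1, by 0.42 ± 0.095 (adjusted p = 0.000501) and 0.28 ± 0.095 (adjusted p = 0.0253). The palbociclib difference of HSPA1A was lost without ZR-75-1 DMSO replicate 1, 0.23 (adjusted p = 0.109), DMSO replicate 3, 0.26 (adjusted p = 0.0698), or palbociclib replicate 2, 0.23 (adjusted p = 0.1), with no filter (0.0667) and with HSPA1A and HSPA1B summed, 0.24 (adjusted p = 0.0501).

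The other 6 members were not called in these tests, which does not show that the lines responded alike. The 95% interval of the difference for HSP90AB1 was -0.06 to 0.22 with abemaciclib and 0.032 to 0.31 with palbociclib. The palbociclib value of HSP90AB1 was called in DESeq2 (0.0318), without mitochondrially encoded genes (0.0151) and without CAMA-1 DMSO replicate 2, 0.22 (adjusted p = 0.0306), CAMA-1 palbociclib replicate 2, 0.23 (adjusted p = 0.0212), ZR-75-1 DMSO replicate 2, 0.25 (adjusted p = 0.0106), or ZR-75-1 palbociclib replicate 3, 0.21 (adjusted p = 0.0436). For HSPD1 the interval with abemaciclib was 0.038 to 0.47, and the difference of 0.25 ± 0.11 (adjusted p = 0.0938) was called without mitochondrially encoded genes (0.0387). It was also called without CAMA-1 DMSO replicate 1, 0.34 (adjusted p = 0.0306), CAMA-1 DMSO replicate 2, 0.32 (adjusted p = 0.045), CAMA-1 abemaciclib replicate 2, 0.35 (adjusted p = 0.0277), ZR-75-1 DMSO replicate 2, 0.37 (adjusted p = 0.0162), or ZR-75-1 abemaciclib replicate 1, 0.33 (adjusted p = 0.0366). HSPE1 was called with abemaciclib without CAMA-1 abemaciclib replicate 3, 0.47 (adjusted p = 0.0369), and with palbociclib without CAMA-1 palbociclib replicate 1, 0.47 (adjusted p = 0.0329), or ZR-75-1 DMSO replicate 2, 0.46 (adjusted p = 0.0322). HSPA8 had wide intervals, -0.034 to 1.18 and -0.015 to 1.16, and was called without the robust step (0.00966 and 0.00684). DNAJB1 and HSPA1B had intervals of -0.42 to 0.10 and -0.18 to 0.46 with abemaciclib.

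**Figure D4:**
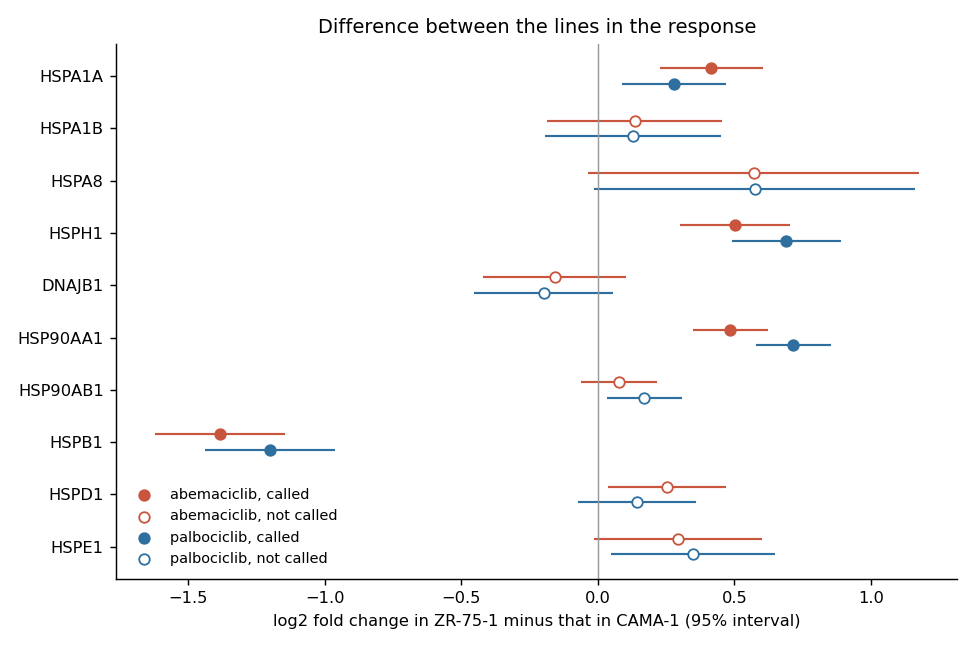
Difference between the lines (ZR-75-1 less CAMA-1) in the log2 fold change against DMSO, for each gene and drug, with 95% intervals from the fit over 18 libraries and filled points for an adjusted p under 0.05. HSPB1 lies far to the left (-1.38 and -1.20), and HSP90AA1, HSPH1 and HSPA1A lie to the right for both drugs.

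Abemaciclib and palbociclib were compared directly at the same dose and time, for 10 members in each line, with p adjusted over all genes of the line. In CAMA-1, 0 members were called higher with abemaciclib, against 0.932% of genes, and 0 lower, against 1.78%. The 95% intervals that follow are not adjusted for the number of genes, and the like share of all genes was not counted. They were 0.035 to 0.26 for HSPA1A, 0.096 to 0.51 for HSPA1B, 0.041 to 0.23 for HSP90AA1 and 0.036 to 0.22 for HSP90AB1. For DNAJB1 the interval was -0.40 to -0.069, for HSPA8 -0.795 to 0.232 and for HSPH1 -0.03 to 0.254. HSPD1 had -0.059 to 0.252 and HSPE1 -0.212 to 0.209. DESeq2 also called 0. HSPA1B passed the threshold without abemaciclib replicate 1, 0.41 (adjusted p = 0.0222), or palbociclib replicate 3, 0.4 (adjusted p = 0.0262), and DNAJB1 without abemaciclib replicate 1, -0.33 (adjusted p = 0.0301). HSPB1 differed by -0.011 ± 0.11 between the drugs, with an interval of -0.28 to 0.26.

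In ZR-75-1, 1 member was called higher with abemaciclib than with palbociclib, against 5.4% of genes, and 1 lower, against 8.19%. HSPA1A was 1.22-fold higher with abemaciclib (0.28 ± 0.075, adjusted p = 0.00459), with no overlap, and held in every alternative run. HSPB1 was lower with abemaciclib, at 0.872 times the palbociclib level (-0.20 ± 0.059, adjusted p = 0.0125). That call was lost without abemaciclib replicate 1, -0.16 (adjusted p = 0.123), abemaciclib replicate 3, -0.17 (adjusted p = 0.0998), or palbociclib replicate 1, -0.15 (adjusted p = 0.0763). HSPD1 was 0.20 ± 0.078 higher and missed the threshold (adjusted p = 0.0672), with calls under RLE scaling (0.049), upper-quartile scaling (0.0316) and without abemaciclib replicate 2, 0.25 (adjusted p = 0.0462), or palbociclib replicate 3, 0.28 (adjusted p = 0.0206). HSPA8 was -0.29 ± 0.15 (adjusted p = 0.271) and was called without palbociclib replicate 1, -0.44 (adjusted p = 1.13e-05), without the robust step (0.0336) and with no filter (0.00803). For the remaining members the intervals were 0.051 to 0.56 for HSPA1B, -0.22 to 0.064 for HSPH1, -0.40 to 0.007 for DNAJB1, -0.21 to 0.015 for HSP90AA1, -0.082 to 0.15 for HSP90AB1 and -0.28 to 0.16 for HSPE1.

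With DMSO alone the lines already differed. In ZR-75-1, 6 of the 10 members were called lower than in CAMA-1, against 29.9% of genes, and 1 higher, against 31.6%, and the median log2 difference of the members was -0.272 beside 0.0083 for all genes. HSPA1A was 3.85-fold lower in ZR-75-1 (-1.94 ± 0.069, adjusted p = 2.09e-48), and HSPA1B 2.47-fold (-1.31 ± 0.11, adjusted p = 5.84e-19). HSP90AB1, which the study's methods name as the reference transcript for quantitative PCR, was 1.97-fold lower (-0.98 ± 0.05, adjusted p = 2.37e-35). DNAJB1 was 1.75-fold lower (-0.81 ± 0.092, adjusted p = 2.68e-13). These 4 held in every alternative run.

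Smaller differences between the lines were less stable. HSPH1 was lower in ZR-75-1 (-0.24 ± 0.072, adjusted p = 0.00235), a call lost without ZR-75-1 DMSO replicate 3, -0.17 (adjusted p = 0.0566). HSPE1 was also lower (-0.30 ± 0.11, adjusted p = 0.0113), a call lost without ZR-75-1 DMSO replicate 3, -0.19 (adjusted p = 0.156). HSP90AA1 was the member called higher in ZR-75-1 (0.21 ± 0.049, adjusted p = 0.000116), and it was not called without CAMA-1 DMSO replicate 2, 0.12 (adjusted p = 0.0519), or ZR-75-1 DMSO replicate 2, 0.1 (adjusted p = 0.125). HSPB1 began at a like level in both lines, with a difference of -0.093 ± 0.08 (95% interval -0.26 to 0.076); without CAMA-1 DMSO replicate 3 it was -0.25 (adjusted p = 4.38e-05). HSPD1 and HSPA8 differed by 0.063 ± 0.076 (adjusted p = 0.482) and 0.37 ± 0.19 (adjusted p = 0.116), the latter called without the robust step (0.00437).

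Across the 18 libraries, after the mean of each line was removed, some members varied together. Pearson's r of log2(CPM + 1) was 0.9 for HSPA1A with HSP90AB1 and 0.86 for HSPH1 with HSP90AA1, against 0.61 for HSPA1A with HSPA1B and 0.38 for HSP90AA1 with HSP90AB1. HSPB1 ran opposite to HSPD1 (-0.78), HSP90AA1 (-0.57) and HSPE1 (-0.55). HSPA8 had no r above 0.35 with another member, and its r with HSPB1 was -0.46. DNAJB1 had none above 0.44, and its r with HSPD1 was -0.43. These are descriptions over 18 libraries that share treatment groups and depth. Among the 10046 genes averaging 10 counts or more, those most like HSPA1A by the same measure were NEU1 (0.949), a lysosomal sialidase, ITM2B (0.943) and HSP90B1 (0.942), the HSP90 of the endoplasmic reticulum. Those most like HSPA8 were UTP11 (0.81), MRPL18 (0.795) and THEM6 (0.785). For HSPD1 they were GALNT6 (0.875), TEX30 (0.866) and CNTNAP2 (0.861).

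The rest of the chaperone network was read from 9 lists with 68 genes, of which 61 were tested in CAMA-1 and 58 in ZR-75-1. In CAMA-1, 9 were called higher and 25 lower with abemaciclib, beside 20.3% and 20.2% of all genes, and 8 and 28 with palbociclib, beside 18.5% and 18.9%. In ZR-75-1 the 58 tested genes held 15 called higher and 15 called lower with abemaciclib, beside 17.9% and 18.3% of all genes, and 10 and 9 with palbociclib, beside 14.6% and 13.6%. HSPA2 is among the genes called lower in CAMA-1 with each drug, and HSPB8 among those called higher in ZR-75-1 with each drug. Both passed the filter on low counts there through the libraries where they were high. Their calls are therefore a description, and the counts and medians given here include them. The counts of each list that follows stand against the same shares. The median log2 fold change was -0.217 and -0.235 in CAMA-1 (both drugs in the same order), against 0.006 and 0.073 in ZR-75-1. HSF1 itself was called in no comparison with DMSO. It stood at 66.5 ± 2.23, 61.5 ± 4.2 and 69.1 ± 1.66 CPM in CAMA-1 (DMSO, abemaciclib, palbociclib; mean ± SD, n = 3) and at 52.1 ± 3.47, 62.4 ± 5.51 and 58.9 ± 7.82 in ZR-75-1. HSF2, a related factor that can pair with HSF1, was called lower with abemaciclib in CAMA-1 (-0.73 ± 0.25, adjusted p = 0.0142) and with palbociclib in ZR-75-1 (-0.63 ± 0.19, adjusted p = 0.00856). Calls were lost for HSF2 with abemaciclib in CAMA-1 without abemaciclib replicate 2 (-0.59, adjusted p = 0.0765) and with DESeq2, and for HSF2 with palbociclib in ZR-75-1 without DMSO replicate 1 or palbociclib replicate 1 (-0.48 to -0.47, adjusted p = 0.0782 to 0.125) and with DESeq2. HSPA6, the HSP70 gene known for being nearly silent without stress, had 0 to 8 counts per library and was not tested.

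**Figure D5:**
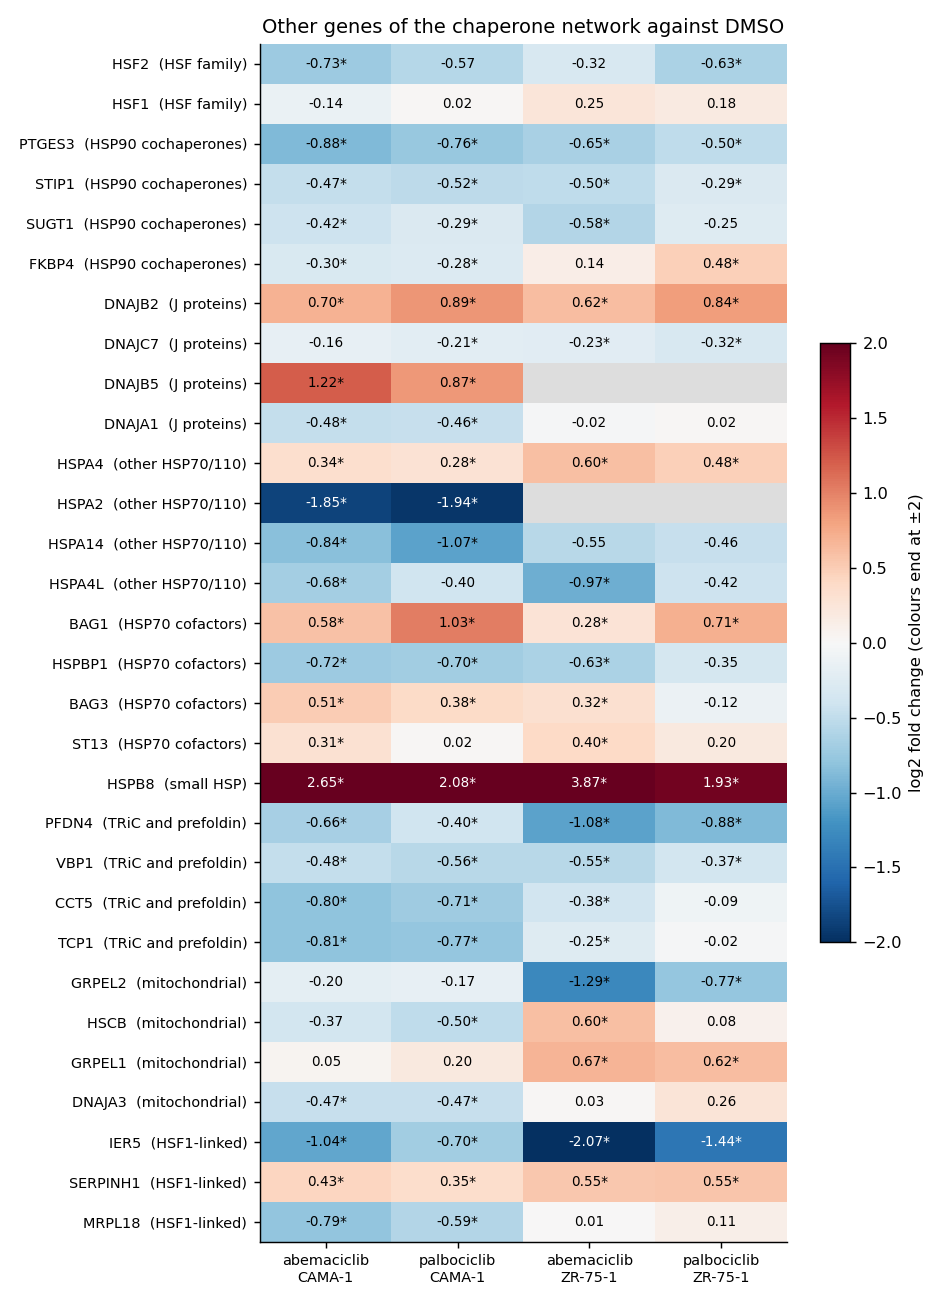
Log2 fold change against DMSO of the 30 named genes of the chaperone network (rows, with their list) in the 4 comparisons (columns), with an asterisk for an adjusted p under 0.05 and grey where a gene was not tested; colours end at ±2. PTGES3, STIP1, PFDN4, VBP1 and IER5 are lower in all 4 columns, and DNAJB2, HSPA4, BAG1 and SERPINH1 higher in all 4. HSPB8 in ZR-75-1 and HSPA2 in CAMA-1 passed the filter on low counts through the libraries where they were high. Their colours and any asterisks there are a description and no support for a change.

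Of 10 HSP90 cochaperones, 4 were called lower with abemaciclib in CAMA-1 (all genes 20.2%), 6 with palbociclib (18.9%), and the rest were not called there. In ZR-75-1, 2 were higher and 3 lower with abemaciclib (17.9% and 18.3%), and 2 and 2 with palbociclib (14.6% and 13.6%). PTGES3 (p23), which binds the closed form of HSP90, fell in all 4 comparisons, with CAMA-1 at 394 ± 18.7 CPM under DMSO, 218 ± 9.47 under abemaciclib and 239 ± 9.4 under palbociclib (SD, n = 3). ZR-75-1 stood at 353 ± 12.9, 226 ± 11 and 250.1 ± 8.19. The adjusted p was 4.51e-18, 2.8e-15, 5.36e-13 and 6.73e-09 in that order. STIP1 (HOP), the adaptor between HSP70 and HSP90, was also lower in all 4 (log2 fold changes -0.47, -0.52, -0.50 and -0.29). FKBP4, a cochaperone of steroid receptor complexes, was lower in CAMA-1 (-0.30 ± 0.088 and -0.28 ± 0.086; adjusted p = 0.00355 and 0.00709) and higher with palbociclib in ZR-75-1 (0.48 ± 0.065, adjusted p = 2.03e-09), and the difference between lines was 0.42 ± 0.10 (adjusted p = 0.00124) for abemaciclib and 0.73 ± 0.10 (adjusted p = 5.45e-09) for palbociclib. SUGT1 was called lower in 3 of the 4. Calls were lost for STIP1 with palbociclib in ZR-75-1 without DMSO replicate 1 or 3 or palbociclib replicate 2 or 3 (-0.30 to -0.16, adjusted p = 0.066 to 0.328) and with DESeq2, and for SUGT1 with palbociclib in CAMA-1 without palbociclib replicate 2 or 3 (-0.27 to -0.26, adjusted p = 0.0511 to 0.0612).

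Among 8 J proteins, of which 7 and 6 were tested, 3 were higher with each drug in CAMA-1 and 2 with each in ZR-75-1, and 1 or 2 were lower. DNAJB2 rose in all 4 comparisons (log2 fold changes 0.70, 0.89, 0.62 and 0.84 for both drugs in CAMA-1 and then in ZR-75-1), from mean levels of 13.5 and 11.7 CPM with DMSO. DNAJA1, the main partner of cytosolic HSC70, was lower in CAMA-1 (-0.48 ± 0.093 and -0.46 ± 0.091; adjusted p = 1.34e-05 and 2.63e-05), with differences between lines of 0.44 ± 0.13 (adjusted p = 0.00811) and 0.45 ± 0.13 (adjusted p = 0.00479). DNAJC7 was called lower in 3 comparisons and DNAJB5 higher in both of CAMA-1. Of 6 other HSP70 and HSP110 genes, HSPA4, a nucleotide exchange factor related to HSPH1, rose in all 4 (0.34, 0.28, 0.60 and 0.48). HSPA4L was lower with abemaciclib in both lines (-0.68 ± 0.21 and -0.97 ± 0.19), HSPA14 was called lower under both drugs in CAMA-1, and HSPA2 had 10 to 32 counts in the CAMA-1 DMSO libraries and 2 to 7 in the drug libraries. HSPA2 passed the filter on low counts there through the DMSO libraries, where it was high, so those counts are a description. Calls were lost for DNAJB2 with abemaciclib in ZR-75-1 without DMSO replicate 1 or 2 or abemaciclib replicate 1 or 3 (0.55 to 0.62, adjusted p = 0.0621 to 0.107) and with DESeq2. They were lost for DNAJB5 with abemaciclib in CAMA-1 without abemaciclib replicate 1 (0.93, adjusted p = 0.0737), and for DNAJB5 with palbociclib in CAMA-1 without DMSO replicate 1, 2 or 3 or palbociclib replicate 1, 2 or 3 (0.76 to 0.94, adjusted p = 0.061 to 0.133) and with no filter or DESeq2. A fit with a replicate block also lost the DNAJB5 call with palbociclib. DNAJC7 lost 2 calls: DNAJC7 with palbociclib in CAMA-1 without DMSO replicate 2 or palbociclib replicate 1, 2 or 3 (-0.22 to -0.16, adjusted p = 0.0527 to 0.174) and with no filter or DESeq2, and DNAJC7 with abemaciclib in ZR-75-1 without DMSO replicate 3 or abemaciclib replicate 1, 2 or 3 (-0.23 to -0.15, adjusted p = 0.052 to 0.231) and with no filter or DESeq2. Of the HSP70 genes, a call was lost for HSPA4L with abemaciclib in CAMA-1 without abemaciclib replicate 1 (-0.47, adjusted p = 0.105).

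Of 7 cofactors of nucleotide exchange and degradation, 6 were tested. BAG1, which releases substrate from HSP70, rose in all 4 comparisons (0.58, 1.03, 0.28 and 0.71; adjusted p = 1.47e-07, 1.52e-16, 0.0292 and 8.97e-09). BAG3, a target of HSF1 that works with HSPB8 in selective autophagy, rose in CAMA-1 (0.51 ± 0.087 and 0.38 ± 0.087; adjusted p = 1.1e-06 and 0.000213). Under abemaciclib it rose in ZR-75-1 as well (0.32 ± 0.11, adjusted p = 0.0155), where palbociclib gave -0.12 ± 0.11 (adjusted p = 0.475). HSPBP1 was called lower in 3 comparisons and ST13 higher with abemaciclib in both lines. HSPB8 was the one tested gene of 4 further small heat shock proteins. It had 41, 75 and 14 counts in the CAMA-1 DMSO libraries and 155 to 313 in the drug libraries, and 1 to 4 counts in the ZR-75-1 DMSO libraries, 18 to 48 with abemaciclib and 8 to 13 with palbociclib. It was called higher with both drugs in CAMA-1 (adjusted p = 0.0105 and 0.0336). Among the ZR-75-1 libraries it passed the filter on low counts through those with abemaciclib, where it was high, so its counts there are a description. The palbociclib call in CAMA-1 was fragile, being lost for HSPB8 with palbociclib in CAMA-1 without DMSO replicate 1 or 3 or palbociclib replicate 1, 2 or 3 (1.5 to 2.25, adjusted p = 0.0541 to 0.0904) and with no filter. A fit with a replicate block lost this HSPB8 call too. Calls were also lost for BAG1 with abemaciclib in ZR-75-1 without DMSO replicate 2 or 3 or abemaciclib replicate 1 or 3 (0.24 to 0.29, adjusted p = 0.0501 to 0.126) and with DESeq2, and for BAG3 with abemaciclib in ZR-75-1 without DMSO replicate 2 (0.26, adjusted p = 0.0976).

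The cytosolic chaperonin TRiC, which folds actin and tubulin, and prefoldin, which hands substrates to it, were read from 14 genes. In CAMA-1, 10 of them were called lower with each drug, beside 20.2% and 18.9% of all genes, and the other 4 were not called. In ZR-75-1, 6 were lower and 2 higher with abemaciclib (18.3% and 17.9%) and 2 lower and 1 higher with palbociclib (13.6% and 14.6%). PFDN4 and VBP1 were lower in all 4 comparisons. CCT5 was called lower in CAMA-1 (-0.80 ± 0.066 and -0.71 ± 0.065). It was also called lower under abemaciclib in ZR-75-1 (-0.38 ± 0.069), with differences between lines of 0.40 ± 0.094 (adjusted p = 0.000861) and 0.60 ± 0.093 (adjusted p = 1.51e-07). TCP1 showed differences between lines of 0.53 ± 0.12 (adjusted p = 0.000578) and 0.72 ± 0.12 (adjusted p = 1.01e-06). Of 10 further mitochondrial chaperones and proteases, 3 and 4 were lower in CAMA-1, and in ZR-75-1 3 were higher and 1 lower with abemaciclib and 1 and 1 with palbociclib. GRPEL1, the exchange factor of the mitochondrial HSP70, rose in ZR-75-1 (0.67 ± 0.11 and 0.62 ± 0.11; adjusted p = 4.26e-07 and 3.64e-06), and its relative GRPEL2 was lower there (-1.29 ± 0.25 and -0.77 ± 0.23; adjusted p = 1.44e-05 and 0.00714). DNAJA3 was called lower under both drugs in CAMA-1 (-0.47 ± 0.19 and -0.47 ± 0.19), and HSCB was lower with palbociclib in CAMA-1 and higher with abemaciclib in ZR-75-1. Among these genes, calls were lost for TCP1 with abemaciclib in ZR-75-1 without abemaciclib replicate 1 (-0.22, adjusted p = 0.0553), and for VBP1 with palbociclib in ZR-75-1 without DMSO replicate 1 or palbociclib replicate 1 or 3 (-0.37 to -0.29, adjusted p = 0.0584 to 0.136) and with DESeq2. Of the mitochondrial genes, DNAJA3 with abemaciclib in CAMA-1 without DMSO replicate 1, 2 or 3 or abemaciclib replicate 1 or 3 (-0.50 to -0.21, adjusted p = 0.0603 to 0.433) and with no filter, DESeq2 or no robust step lost its call, as did DNAJA3 with palbociclib in CAMA-1 without DMSO replicate 1, 2 or 3 or palbociclib replicate 2 or 3 (-0.50 to -0.42, adjusted p = 0.0584 to 0.125) and with no filter or DESeq2. So did HSCB with palbociclib in CAMA-1 without DMSO replicate 1 or 2 or palbociclib replicate 2 or 3 (-0.49 to -0.35, adjusted p = 0.0884 to 0.223) and with no filter or DESeq2, HSCB with abemaciclib in ZR-75-1 without DMSO replicate 2 or abemaciclib replicate 1 or 2 (0.44 to 0.57, adjusted p = 0.0523 to 0.162) and with DESeq2, and GRPEL2 with palbociclib in ZR-75-1 without DMSO replicate 1 or palbociclib replicate 2 (-0.66 to -0.46, adjusted p = 0.0521 to 0.231) and with DESeq2.

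Of 6 other genes linked to HSF1, IER5, which brings a phosphatase to HSF1, fell in all 4 comparisons. The CAMA-1 libraries had 44.1, 50.2 and 45 CPM with DMSO, 29.1, 21.9 and 17.5 with abemaciclib and 23.1, 29.6 and 36 with palbociclib. Those of ZR-75-1 had 55.3, 53.4 and 46.6 CPM under DMSO, 13.6, 9.03 and 14.6 under abemaciclib and 16.8, 16.6 and 23.9 under palbociclib. No drug library overlapped DMSO in either line. The log2 fold changes were -1.04 ± 0.17, -0.70 ± 0.16, -2.07 ± 0.19 and -1.44 ± 0.17 (adjusted p = 2.99e-07, 0.000208, 9.74e-17 and 3.09e-11), and the difference between lines, a larger fall in ZR-75-1, was -1.06 ± 0.26 (adjusted p = 0.0014) and -0.77 ± 0.24 (adjusted p = 0.0129). SERPINH1 (HSP47), the collagen chaperone of the endoplasmic reticulum, rose in all 4 (0.43, 0.35, 0.55 and 0.55). MRPL18 was lower in CAMA-1 (-0.79 ± 0.15 and -0.59 ± 0.14), with differences between lines of 0.77 ± 0.19 (adjusted p = 0.00136) and 0.67 ± 0.18 (adjusted p = 0.0039). Of the 85 calls of the named network genes against DMSO, 62 held in all 8 alternative settings and all leave-one-out fits, 23 were lost without some library, 15 in another setting, and 0 changed sign. These genes were named for being called most often in the same comparisons, so the count describes them and not the whole network. The setting that summed HSPA1A and HSPA1B left their own counts unchanged. The 85 include HSPA2 in CAMA-1 and HSPB8 in ZR-75-1, whose counts there are only a description. HSPB8 with abemaciclib in ZR-75-1 is among the 62, and its place there is no support for a rise.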

How the data were processed

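RNA from 18 cultures was read from the 3′ end. Per the labels and the study's methods, the authors trimmed reads with BBDuk, aligned them with STAR 2.7.5b to hg38 and counted them per gene with featureCounts 2.0.1 on GENCODE genes, and the deposited values are raw counts. The kit's strand version differs between the labels and the methods. The strand setting, the handling of multi-mapping reads and molecular identifiers are not given in the sources used here, so intervals cover the spread between libraries as counted. Counts were tested in edgeR 4.0.16 (R 4.3.3) with filterByExpr, TMM scaling and the robust quasi-likelihood F test, separately per line (9 libraries) and over 18 libraries for contrasts between lines, with Benjamini-Hochberg adjustment over all genes. The SE is the absolute log2 fold change divided by the square root of F. Self-tests were also run on counts simulated from the fitted data with known fold changes. Alternatives were RLE and upper-quartile scaling, no filter, DESeq2 1.42.0, a replicate block, leaving out 37 mitochondrially encoded genes, HSPA1A and HSPA1B summed, leaving out each library and, chosen after seeing the data, edgeR without robust estimation. Members and lists were chosen with earlier results of these data known. In each network list, at most 4 genes were named, those called in most comparisons with DMSO, then those with the largest mean absolute change, and 1 gene that the rule names is not reported here. Likeness used log2 CPM with a pseudocount of 1. Depth sets the precision: 3 counts equal 0.723 to 1.3 CPM, and the biological coefficient of variation was 8.12% in CAMA-1 and 8.3% in ZR-75-1.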

Additional observations from a re-analysis of the deposited data

Results flagged for a closer look

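The responses of 4 chaperone genes differed between the lines by the interaction test (edgeR, 18 libraries, values on the log2 scale, ZR-75-1 less CAMA-1). HSPB1 differed by -1.38 ± 0.11 (adjusted p = 2.18e-08) with abemaciclib and by -1.20 ± 0.11 (adjusted p = 1.45e-07) with palbociclib. HSP90AA1 differed by 0.49 ± 0.07 (adjusted p = 1.97e-08) and 0.72 ± 0.07 (adjusted p = 3.39e-15) with the drugs in that order, and HSPH1 by 0.50 ± 0.10 (adjusted p = 6.57e-05) and 0.69 ± 0.10 (adjusted p = 2.98e-08). HSPA1A, higher with both drugs in both lines, differed by 0.42 ± 0.095 (adjusted p = 0.000501) and 0.28 ± 0.095 (adjusted p = 0.0253), and the palbociclib value was not called under some alternatives.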

How the results depend on the processing

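Most values of the 10 chaperones kept their direction and their side of the threshold: of 90 values per setting, 88 did under RLE scaling, 87 under upper-quartile scaling, 87 without mitochondrially encoded genes, 84 with no filter, and 82 each under DESeq2 and without robust estimation, the last chosen after seeing the data. The 1 member called lower with abemaciclib against DMSO in ZR-75-1 (HSPB1) became 0 under RLE scaling, upper-quartile scaling, no filter, DESeq2, the replicate block and no robust estimation. Between the drugs in ZR-75-1, 2 were called higher under RLE and upper-quartile scaling, and 2 lower with no filter, the replicate block and no robust estimation. ZR-75-1 against CAMA-1 with DMSO gave 2 higher without robust estimation. Leaving out 1 library at a time gave counts of 0 to 1 higher between the lines with DMSO, 0 to 1 higher and 0 to 1 lower between the drugs in CAMA-1, 1 to 2 higher and 0 to 1 lower between the drugs in ZR-75-1, 0 to 1 lower with abemaciclib in ZR-75-1, and 2 to 5 higher for the line difference in the palbociclib response. Directions turned only for values that were not called. HSPE1 between the drugs in CAMA-1 was -0.0014 and turned to 0.0007 in DESeq2. Without 1 library, log2 fold changes ran from -0.03 to 0.14 for DNAJB1 and from -0.04 to 0.0073 for HSPB1 (between drugs) in CAMA-1, and from -0.12 to 0.1 for HSPE1 between drugs there. In ZR-75-1 they ran from -0.14 to 0.0078 for DNAJB1, -0.08 to 0.07 for HSPA8 and -0.08 to 0.11 for HSPE1 with abemaciclib, -0.03 to 0.17 for HSPE1 with palbociclib, and -0.11 to 0.05 for HSPE1 between drugs. HSPD1 between the lines with DMSO ran from -0.05 to 0.11. Samples with the same replicate number did not deviate together (correlations of -0.08 to 0.025), so the numbers do not pair samples, and the fit with the replicate block moved 4 of 90 values across the threshold: HSPA8 with palbociclib in ZR-75-1 to 0.28 (adjusted p = 0.0031), HSPA8 between the drugs there to -0.27 (adjusted p = 0.00911), HSPB1 with abemaciclib there to -0.14 (adjusted p = 0.0878) and HSPE1 between the lines with DMSO to -0.3 (adjusted p = 0.0728). Apart from settings that use fewer samples, the cause was not tested. At this depth HSPA6, CRYAB and other genes with a few counts could not be tested.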

Other observations

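The genes beside HSPA1A and HSPA1B on chromosome 6 were read after their values had been seen. NEU1, which lies 27405 bases past the end of HSPA1B, was called higher in all 4 comparisons with DMSO, at log2 fold changes of 0.70 (abemaciclib) and 0.57 (palbociclib) in CAMA-1, against 1.66 and 1.10 in ZR-75-1. LSM2, on the other side of HSPA1A, was lower in CAMA-1 (-0.90 and -0.68) and with abemaciclib in ZR-75-1 (-0.45, adjusted p = 0.0375). SLC44A4 was not tested in both lines, and where it was tested it was higher with both drugs (0.35 and 0.34, adjusted p = 0.0107 and 0.0157). EHMT2 was lower with abemaciclib in both lines (-0.33 and -0.50, adjusted p = 0.0245 and 0.0419). VARS1 was called in none of the 4, and HSPA1L in neither comparison of CAMA-1, where alone it was tested.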
